A study of Mus musculus with 8 samples.

Results

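Limb bud cells that lacked the Sox9 reporter were compared between Sox9 mutant and control mouse fetuses, with attention to receptors, signalling molecules, enzymes and transcription factors rather than to the usual cell type markers. The genes are all those that the authors' 4 deposited tables name for either sort, 739 in all. Of these, 510 were listed for GFP-negative cells, 85 as higher and 425 as lower in the mutant, and the remaining 229 were listed for GFP-positive cells only. About 16244 genes were tested by the authors, so 3.14% were listed for GFP-negative cells, 0.523% as higher and 2.62% as lower. The listed genes were chosen by the authors on these same libraries, so their values are a description. Genes outside the tables were not analysed here.

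The mutant is Sox9+/Y440X-IRES-EGFP, written Y440X below, and the control is Sox9+/IRES-EGFP, written WT. Both are C57BL/6 fetuses at stage E13.5 and both carry the EGFP cassette on 1 Sox9 allele, the mutant with the Y440X nonsense change on that allele. EGFP is made from the Sox9 transcript, so the GFP-negative sort holds cells with little Sox9 expression. Limb buds were dissociated with proteases and sorted by fluorescence, and 4 to 6 pairs of buds were pooled per library. The groups are Y440X GFP-negative, WT GFP-negative, Y440X GFP-positive and WT GFP-positive, with 2 libraries each, 1 of forelimb and 1 of hindlimb. The submitters counted the limbs as replicates. P-values therefore measure the spread between 1 forelimb and 1 hindlimb pool per group, which mixes limb with other variation. No label says that the limbs came from different fetuses.

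Sox9 is the transcription factor that starts cartilage formation, and the Y440X change removes the end of the protein, which activates its targets. It causes campomelic dysplasia in people. Cells of a midgestation limb that do not express it include connective tissue and skin precursors, muscle, blood vessels, red cells and tissue macrophages. Fetal macrophages read their surroundings through toll-like, complement, purine and Fc receptors. Vessel cells use other receptors and the growth factors Dll4 and Angpt2, and the skin surface sends Wnt signals into the tissue beneath it.

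Sequencing depth was 51140000 and 48065000 reads in Y440X and 47249000 and 44474000 in WT GFP-negative libraries, and 38583000 to 51140000 over all 8. Levels are read counts per 1000000 reads (CPM), given for forelimb and then hindlimb. Fold changes are log2 of Y440X over WT with the standard error (SE) of edgeR's quasi-likelihood fit, n = 2 libraries per group. Sox9 itself, whose alleles the counts do not separate, had 17.8 and 21.9 CPM in Y440X, against 96.4 and 72.1 CPM in WT GFP-negative cells (log2 fold change -2.08 ± 0.19; FDR 0.00149 in the authors' deposited table). The sort label held in the WT libraries for the markers checked: Pecam1 of endothelium had 60.1 and 60.5 CPM in GFP-negative and 3.58 and 2.56 CPM in GFP-positive cells. Mrc1 of macrophages had 153 and 141 CPM against 1.53 and 1.22 CPM, and Krt14 of skin epithelium 4.95 and 6.90 CPM against 1.81 and 1.72 CPM. In Y440X GFP-negative cells Pecam1 had 23.3 and 25.3 CPM (-1.31 ± 0.15), Mrc1 29.1 and 22.7 CPM (-2.50 ± 0.17) and Krt14 19.5 and 24.9 CPM (1.90 ± 0.23). Pecam1 and Mrc1 were thus lower and Krt14 higher in both Y440X libraries than in either WT library.

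Most listed genes outside the marker lists were lower in Y440X. Lists of cell type markers for endothelium, macrophage, neutrophil, muscle, epithelium, cartilage, Schwann and neural crest, and red cells took 65 of the 510 listed genes. Of the other 445 genes, 378 were lower and 67 higher. Over all 510 listed genes 83.3% were lower, so a family of a few listed genes can be all lower by that share alone. A role as ligand, receptor, intracellular signalling protein, transcription factor, enzyme, transporter or channel, or matrix or adhesion protein was assigned by hand to 273 of them, 235 lower and 38 higher. The other 172, 143 lower and 29 higher, have other roles or none assigned, among them long non-coding RNAs and microRNAs.

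**Figure D1:**
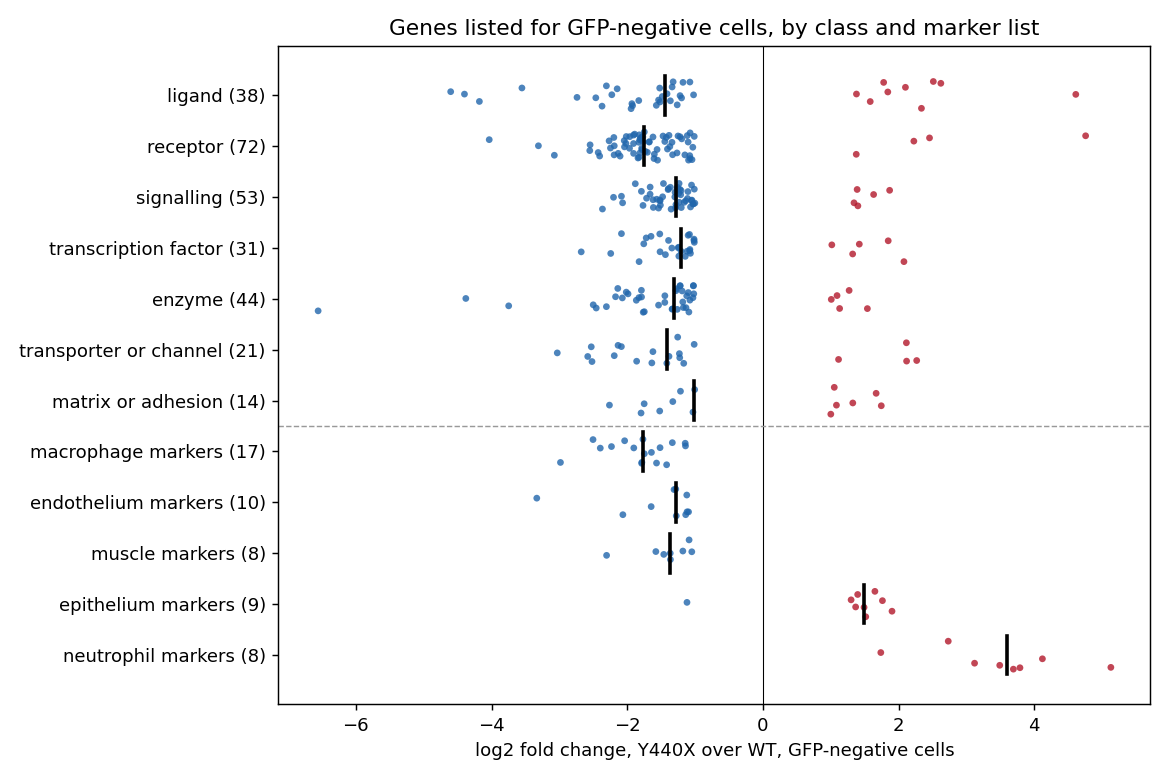
Log2 fold change of Y440X over WT in GFP-negative cells (x axis) for each listed gene, in rows by functional class above the dashed line and by marker list below it, with the number of genes in parentheses. Blue points are lower and red points higher in Y440X, black bars are medians. Receptors have the lowest median of the classes, -1.76, beside -1.77 for macrophage markers.

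Receptors were the largest class, 68 lower and 4 higher, and the lower ones had a median log2 fold change of -1.78. The median of all 425 lower genes was -1.52. The lowest listed receptor was the taste receptor Tas1r2, under 1 CPM in every library and with 0 reads in 1 Y440X library. Among receptors with a mean of at least 1 CPM in WT, C5ar1 and Msr1 had the largest decreases. C5ar1, the receptor for the complement fragment C5a, had 0.763 and 0.541 CPM in Y440X, against 7.70 and 5.28 CPM in WT (-3.31 ± 0.32). Msr1, a scavenger receptor for modified lipoproteins, had 0.958 and 0.978 CPM in Y440X, against 7.96 and 8.39 CPM in WT (-3.07 ± 0.24). In both genes each Y440X library lay below each WT library. Counting either direction, the genotypes lay apart without overlap for all 510 listed genes and for 90.5% of the 739 genes in hand. Cd86, the B7 protein that stimulates T cells, had 2.85 and 1.498 CPM in Y440X, against 13.8 and 9.69 CPM in WT (-2.43 ± 0.33). Its T cell partner Cd28 was also lower (-2.20 ± 0.37).

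Toll-like receptors, which sense microbial lipids and nucleic acids, were listed 8 times with the related Cd180, and all 8 were lower (median -2.02). Tlr7 and Tlr8, neighbours on chromosome X (GRCm38, 167241123 to 167330574 over both genes) that sense single-stranded RNA, fell together. Tlr7 had 1.21 and 1.17 CPM in Y440X, against 6.69 and 7.29 CPM in WT (-2.55 ± 0.24), and Tlr8 had 0.176 and 0.166 CPM in Y440X, against 1.02 and 1.01 CPM in WT (-2.55 ± 0.36). Cd180, which restrains the lipopolysaccharide response, had 1.52 and 1.21 CPM in Y440X, against 7.58 and 5.60 CPM in WT (-2.27 ± 0.28). The smallest decrease of the group was that of Tlr2, the receptor for bacterial lipoproteins, with 13.7 and 15.3 CPM in Y440X, against 33.2 and 29.6 CPM in WT (-1.11 ± 0.17).

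Of 23 listed G protein-coupled receptors outside the marker lists 22 were lower. Besides C5ar1 they include C3ar1, the other complement fragment receptor, with 4.79 and 3.56 CPM in Y440X, against 22.2 and 15.9 CPM in WT (-2.19 ± 0.25). The ADP receptors P2ry12 and P2ry13, adjacent on chromosome 3, measured -1.81 ± 0.26 and -1.97 ± 0.30. The chemokine receptor Ccr1 had 1.41 and 1.29 CPM in Y440X, against 5.67 and 5.96 CPM in WT (-2.10 ± 0.24). Receptors of vessels were among the smaller decreases. Calcrl, the receptor for adrenomedullin, measured -1.20 ± 0.19. The scavenging chemokine receptor Ackr3, at 63.5 and 55.6 CPM in Y440X against 131 and 113 CPM in WT, measured -1.03 ± 0.16 and lay at 0.04 when scaled over the listed genes alone. The member that was higher was Gpr25, with 3.46 and 2.73 CPM in Y440X, against 1.08 and 1.30 CPM in WT (1.38 ± 0.28). Of the other higher receptors Cd1d2, which presents lipids and is a near copy of Cd1d1 whose reads it may share, had 0.841 and 1.46 CPM in Y440X, against 0.254 and 0.157 CPM in WT. Flt3 and Cd7 stayed under 1 CPM in every library.

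Ligands and their antagonists were listed 38 times, 29 lower and 9 higher. Chemokines and inflammatory cytokines were the lowest, and all 7 listed chemokine ligands outside the marker lists were lower, with a median of -2.46. Cxcl2, a neutrophil attractant, had 5.14 and 2.83 CPM in Y440X, against 63.0 and 30.7 CPM in WT (-3.55 ± 0.37). Cxcl3, of the same family, had 0.156 and 0.0832 CPM in Y440X, against 4.15 and 1.03 CPM in WT (-4.40 ± 0.85). Il1rn, the secreted antagonist of interleukin 1, had 0.137 and 0.0416 CPM in Y440X, which is 7 and 2 reads, against 1.95 and 1.42 CPM in WT (-4.18 ± 0.57). The WT libraries of Cxcl2 and Cxcl3 differed widely from each other, with forelimb above hindlimb. That they lay clear of both Y440X libraries was required by the rule for naming genes.

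Ccl3 and Ccl4, adjacent macrophage chemokine genes on chromosome 11, measured -2.31 ± 0.21 and -2.46 ± 0.24. Ccl24 had 0.313 and 0.291 CPM in Y440X, against 2.69 and 1.37 CPM in WT (-2.74 ± 0.43). Tnf, the central inflammatory cytokine, had 2.13 and 1.44 CPM in Y440X, against 11.1 and 5.67 CPM in WT (-2.23 ± 0.36). Tnfsf11, or RANKL, the factor that osteoclasts need to form, had 0.626 and 0.354 CPM in Y440X, against 3.28 and 1.82 CPM in WT (-2.37 ± 0.41). Tnfsf18 had 0 and 1 reads in Y440X and 11 and 17 in WT, too few for a fold change. Over the list of 178 chemokine, cytokine and receptor genes, 19 were listed, beside 3.14% of all tested genes. None of the 19 was higher, and their median of -2.10 went with 19 values below 0 also when scaled over the listed genes alone. Il1rap, the shared chain of the interleukin 1 receptor family, had the smallest change among them (-1.08 ± 0.20). It lay at -0.008 when scaled over the listed genes alone, close to no change. The chemokine receptor Cxcr5 measured -1.68 ± 0.31. Tnfrsf1b, a receptor for Tnf, measured -1.33 ± 0.30 and -0.85 without the WT forelimb library. Il11 stayed under 1 CPM in every library, and its decrease of -1.52 ± 0.43 was lost without the WT forelimb library (edgeR adjusted p = 0.051).

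Several growth factors, morphogens and guidance cues were lower as well. Sema3c and Sema3d, secreted guidance cues, had 35.8 and 56.7 CPM and 25.3 and 16.4 CPM in Y440X, against 104 and 118 CPM and 64.0 and 40.2 CPM in WT (-1.26 ± 0.22 and -1.32 ± 0.27). With the semaphorin receptor Plxnb3 (-1.83 ± 0.47) they made up the 3 listed genes of 72 in the guidance list, all lower. For this and the lists below, 3.14% of all tested genes were listed and 83.3% of all listed genes were lower. Of the 39 genes of the BMP and TGF-beta list 4 were listed and all 4 were lower, the ligand Gdf5 of joint formation (-1.20 ± 0.19), the antagonist Nog (-1.08 ± 0.17), and the receptors Bmpr1b (-1.27 ± 0.21) and Bmpr2 (-1.01 ± 0.13). Bmpr2 had 126 and 127 CPM in Y440X, against 255 and 256 CPM in WT, and is 1 of 3 genes named by rule that lay above 0 when scaled over the listed genes alone. Nog, Gdf5 and Bmpr1b lay at -0.008, -0.12 and -0.18 under that scaling. The Notch ligand Dll4 of vessel tips had 2.13 and 3.56 CPM in Y440X, against 6.79 and 7.58 CPM in WT (-1.34 ± 0.29). In the FGF list Fgf17 and the receptor Fgfr3 were the 2 listed of 32, at -1.48 ± 0.41 and -1.04 ± 0.24, with Fgfr3 another of the 3 genes that changed sign with the scaling. In the hedgehog list Dhh was the 1 listed of 11 (-1.54 ± 0.41), under 1 CPM in every library and not called by DESeq2. In WT, Sema3c, Sema3d, Gdf5, Nog, Bmpr1b, Bmpr2, Fgf17, Fgfr3 and Dhh had higher mean levels in GFP-positive than in GFP-negative cells. Fgfr3 had 778.5 against 41.8 CPM, and only Plxnb3 and Dll4 went the other way. Nog, Fgfr3 and Sema3d were also lower in Y440X than in WT GFP-positive cells (-1.83, -1.47 and -1.12), and Gdf5 was not (0.10). The part of Sox9 and the cartilage markers in these changes was not tested.

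The higher ligands were led by the Wnt family, secreted signals of the skin surface. Of 52 genes in the Wnt list 7 were listed, 6 higher and 1 lower. Wnt7b had 4.95 and 8.97 CPM in Y440X, against 0.847 and 1.91 CPM in WT (2.34 ± 0.42). Wnt7a, Wnt3 and Wnt6 measured 2.62 ± 0.48, 2.10 ± 0.40 and 1.84 ± 0.34. In GFP-positive cells Wnt7b, Wnt7a, Wnt3 and Wnt6 were higher too (2.21 ± 0.36, 2.15 ± 0.50, 3.03 ± 0.60 and 3.05 ± 0.41). None of them had a called difference between the sorts in the interaction test below. Wnt9b, next to Wnt3 on chromosome 11, had 29 and 30 reads in Y440X, against 0 and 2 reads in WT. Rspo1, which strengthens Wnt signals, had 29.5 and 15.8 CPM in Y440X, against 7.62 and 7.49 CPM in WT (1.58 ± 0.28). Rnf43, an inhibitor of Wnt receptors and itself a Wnt target, had 3.91 and 3.35 CPM in Y440X, against 1.33 and 1.42 CPM in WT (1.40 ± 0.26). The lower member was the receptor Fzd4, with 34.7 and 32.6 CPM in Y440X, against 83.5 and 73.4 CPM in WT (-1.22 ± 0.15). Lefty2, Cck and Rln1, the other higher ligands, had mean levels under 1 CPM in both genotypes.

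**Figure D2:**
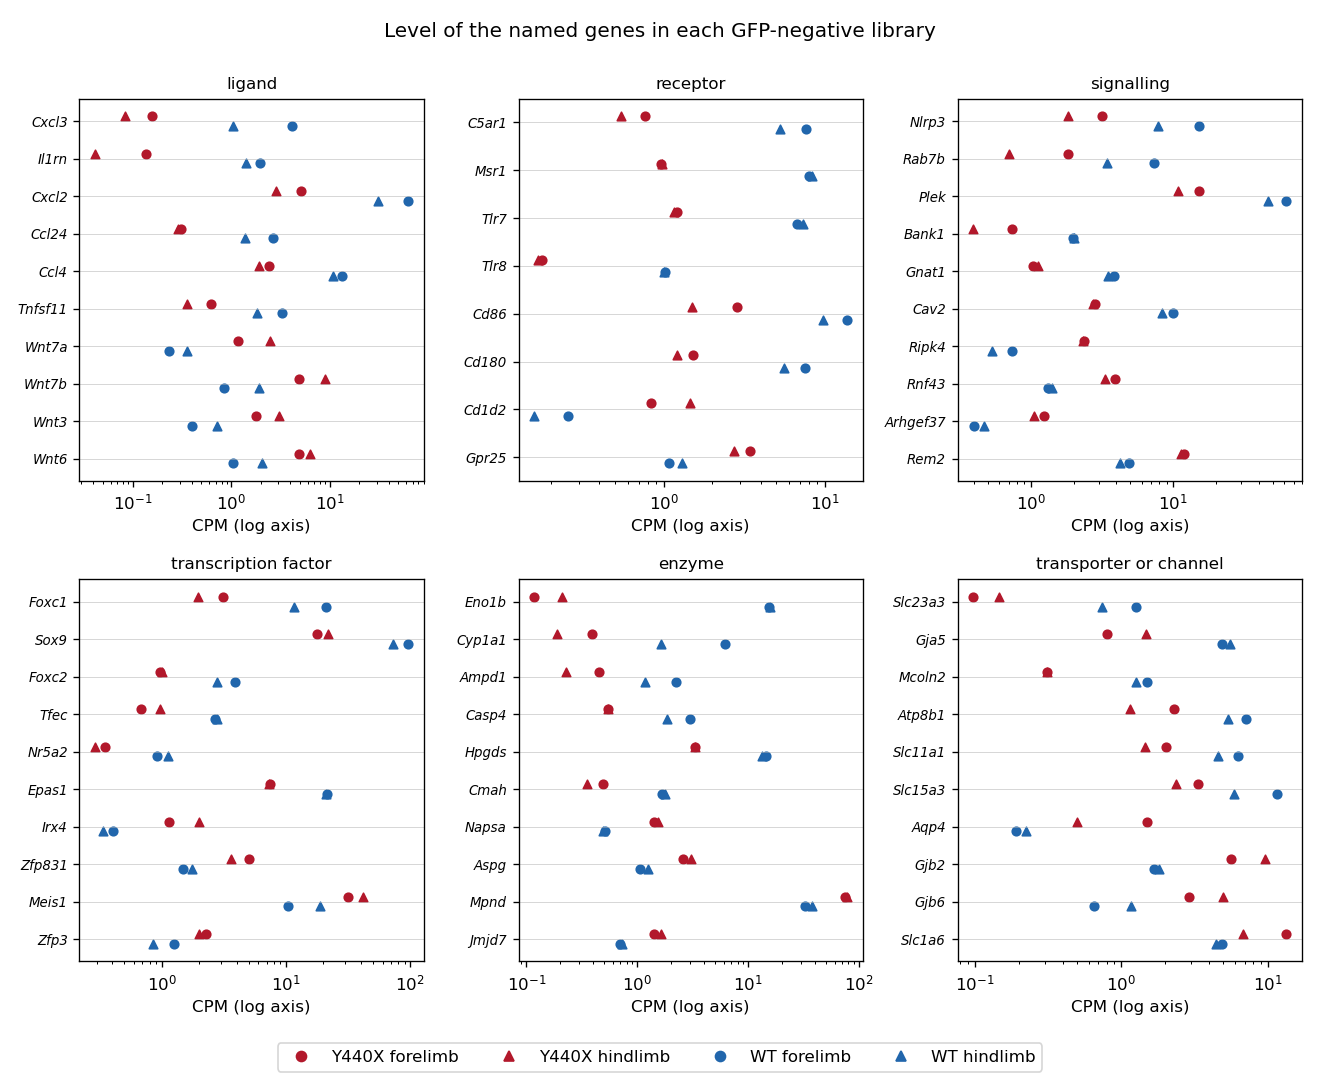
CPM on a log axis (x) of the genes named by rule in 6 classes (rows), with Y440X libraries in red above WT libraries in blue, circles for forelimb and triangles for hindlimb. The red and blue points do not overlap in any row, because the naming rule required it. The gap is widest for Eno1b, with 0.117 and 0.208 CPM in Y440X against 15.2 and 15.7 CPM in WT.

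Intracellular signalling genes were listed 53 times, 48 lower and 5 higher, and the lower ones had a median of -1.30. Several belong to the chain that leads from immune receptors to the cytoskeleton: the Src family kinase Lyn (-1.66 ± 0.19), the kinase Btk (-1.05 ± 0.25), the lipid kinase Pik3cg (-1.61 ± 0.27), the lipid phosphatase Inpp5d (-1.01 ± 0.20), and the GTPase activators Vav1 and Vav3 (both -1.24). Btk and Inpp5d lay above 0 when scaled over the listed genes alone. Plek, a protein kinase C substrate of blood cells, had 15.1 and 10.8 CPM in Y440X, against 62.4 and 46.4 CPM in WT (-2.07 ± 0.22). Nlrp3, the sensor of the inflammasome, had 3.17 and 1.83 CPM in Y440X, against 15.2 and 7.80 CPM in WT (-2.20 ± 0.37). The late endosomal GTPase Rab7b measured -2.08 ± 0.48, the B cell adaptor Bank1 -1.79 ± 0.35. Casp4, a protease of the non-canonical inflammasome, was also lower, with 0.547 and 0.541 CPM in Y440X, against 2.96 and 1.84 CPM in WT (-2.14 ± 0.34).

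The caveolins Cav2 and Cav1, coats of membrane pits and adjacent on chromosome 6, had 2.83 and 2.75 CPM and 24.4 and 21.3 CPM in Y440X, against 9.99 and 8.34 CPM and 59.8 and 52.2 CPM in WT (-1.72 ± 0.23 and -1.29 ± 0.17). Subunits of soluble guanylate cyclase, the nitric oxide receptor, were lower as well, Gucy1a2 at -1.23 ± 0.19 and Gucy1a3 at -1.16 ± 0.21. Of 25 immediate early genes, which respond within minutes to stress or growth factors, only the phosphatase Dusp2 was listed, at -1.51 ± 0.34 and at -0.92 without the WT forelimb library. Higher signalling genes included Ripk4, a kinase of keratinocyte differentiation, with 2.37 and 2.33 CPM in Y440X, against 0.741 and 0.540 CPM in WT (1.87 ± 0.30), the guanine nucleotide exchange factor Arhgef37 (1.39 ± 0.32) and the small GTPase Rem2, with 11.9 and 11.3 CPM in Y440X, against 4.93 and 4.21 CPM in WT (1.34 ± 0.21).

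Transcription factors were listed 31 times, 26 lower and 5 higher, with a median of -1.24 for the lower ones. Among those with a mean of at least 1 CPM in WT, Foxc1, Sox9 and Foxc2 had the largest decreases; Skor1 and Pax6, with lower levels, measured -2.24 ± 0.45 and -1.82 ± 0.48. Foxc1, a regulator of skull, vessel and joint formation, had 3.11 and 1.98 CPM in Y440X, against 20.9 and 11.7 CPM in WT (-2.68 ± 0.33). Its paralog Foxc2 had 0.978 and 0.999 CPM in Y440X, against 3.92 and 2.77 CPM in WT (-1.76 ± 0.29). With Foxd2, Foxp2 and the neural crest marker Foxd3, all 5 listed forkhead genes were lower, beside 83.3% of all listed genes. In WT, Foxc1 and Foxc2 were at higher levels in GFP-positive cells, 241 and 198 CPM and 45.3 and 28.5 CPM. Sox9 and the cartilage markers moved the same way in the GFP-negative libraries, and their part in the change of these genes was not tested.

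Factors of myeloid cells and vessels were lower too. Spi1 (PU.1), the master factor of macrophages, had 3.58 and 3.25 CPM in Y440X, against 9.99 and 8.50 CPM in WT (-1.44 ± 0.22). Tfec, a macrophage member of the Mitf family, had 0.684 and 0.978 CPM in Y440X, against 2.67 and 2.81 CPM in WT (-1.72 ± 0.30). Epas1 (HIF-2α), the oxygen-sensing factor of endothelium, had 7.39 and 7.30 CPM in Y440X, against 21.3 and 20.9 CPM in WT (-1.52 ± 0.18). The nuclear receptor Nr5a2, not assigned to either cell type, measured -1.65 ± 0.33. Its mean WT level was 1.02 CPM in GFP-negative and 0.92 CPM in GFP-positive cells. Ebf1, Ebf2 and Ebf3, factors of B cells and connective tissue, measured -1.07 ± 0.18, -1.08 ± 0.21 and -1.10 ± 0.17, and lay within 0.03 of 0 when scaled over the listed genes alone. Higher were Irx4, with 1.15 and 1.997 CPM in Y440X, against 0.402 and 0.337 CPM in WT (2.08 ± 0.39), and the limb homeobox gene Meis1, with 31.3 and 41.9 CPM in Y440X, against 10.4 and 18.9 CPM in WT (1.32 ± 0.28). Zfp831 measured 1.42 ± 0.28, and Zfp3 (1.02 ± 0.30) lost its call without the WT hindlimb library (0.77).

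Promoters of 3 genes with large changes are shown because they hold the 8 letters GAGGAAGT, a strong form of the site that Spi1 and other ETS factors bind. They were the genes named here by rule, or listed in opposite directions in the sorts, with a mean of at least 1 CPM and those letters in the 250 bases before an annotated start, searched on both strands. The sequences are RefSeq's for GRCm38.p6, written 5′ to 3′ on the gene's strand in lower case, with the match in capitals. Hpgds is on the minus strand at chr6:65144761-65144790, inside the span of a longer transcript and therefore cut to 30 bases. Rasgrp3 is on the plus strand at chr17:75435655-75435869, cut to 215 bases for the same reason and ending short of the start used, and Spp1 on the plus strand at chr5:104434861-104435110.
Hpgds: gcttttaggtgGAGGAAGTggcctctggct
Rasgrp3: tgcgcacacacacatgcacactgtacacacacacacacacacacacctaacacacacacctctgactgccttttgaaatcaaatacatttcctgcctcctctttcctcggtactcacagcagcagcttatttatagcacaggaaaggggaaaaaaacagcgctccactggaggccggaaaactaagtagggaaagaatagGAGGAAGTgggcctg
Spp1: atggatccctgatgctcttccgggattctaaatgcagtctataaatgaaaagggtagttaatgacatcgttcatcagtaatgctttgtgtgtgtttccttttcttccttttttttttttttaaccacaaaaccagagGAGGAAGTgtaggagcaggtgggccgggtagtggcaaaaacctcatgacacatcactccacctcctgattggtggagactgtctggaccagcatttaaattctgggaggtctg
The match begins 49 bases before the start used for Hpgds, 50 before that for Rasgrp3 and 113 before that for Spp1.

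Among all 27025 genes in the promoter table, 997 (3.69%) hold these letters in the 250 bases before to 50 bases after a start. The table matched 296 of the 425 lower and 61 of the 85 higher genes, fewer than 80%, so a comparison of shares would be void and none is made. Of the 296 matched lower genes, 26 held the letters. They included 8 of 37 signalling genes, 4 of 50 receptors, 1 of 28 enzymes, 1 of 23 ligands and 1 of 15 transcription factors. They also included 4 of 13 matched macrophage markers, besides Spp1 and other genes outside these classes. The classes were not compared. The signalling genes were Vav1, Pik3cg, Inpp5d, Cyth4, Samsn1, Apbb1ip, Nlrp1b and Rasgrp3. The higher genes with the letters were S100a8 and Olfm4. The heat shock element and the grainyhead site (AACCGGTT) were searched in the same way, and 0.662% and 0.174% of all genes in the table hold them. The first was not in the windows of Hspa1a, Hspa1b or Hspb1, and neither was in a window of a matched higher gene. A match is a string of letters, and binding was not measured.

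Enzymes were listed 44 times, 39 lower and 5 higher. Eno1b had the largest decrease of all 510 genes, with 0.117 and 0.208 CPM in Y440X, against 15.2 and 15.7 CPM in WT (-6.56 ± 0.36). In GFP-positive cells it was lower as well, with 0.154 and 0.312 CPM in Y440X, against 40.3 and 40.6 CPM in WT (-7.43 ± 0.37). Its sequence is a near copy of the glycolytic enzyme gene Eno1, so the reads are uncertain. Cyp1a1, which oxidises foreign aromatic compounds and responds to the aryl hydrocarbon receptor, had 0.391 and 0.187 CPM in Y440X, against 6.22 and 1.64 CPM in WT (-3.75 ± 0.69, and -2.485 without the WT forelimb library). Ampd1, the AMP deaminase of muscle, had 0.450 and 0.229 CPM in Y440X, against 2.22 and 1.17 CPM in WT (-2.31 ± 0.46). Cmah, which makes the sialic acid that humans lack, measured -2.01 ± 0.32.

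Genes that make, sense or clear prostanoids and leukotrienes were listed 4 times and all 4 were lower, beside 83.3% of all listed genes. Hpgds, the prostaglandin D synthase of macrophages and mast cells, had 3.29 and 3.31 CPM in Y440X, against 14.4 and 13.3 CPM in WT (-2.07 ± 0.20). The thromboxane synthase Tbxas1 measured -1.79 ± 0.26, the degrading enzyme Hpgd -1.19 ± 0.22 and the leukotriene receptor Cysltr1 -1.42 ± 0.30. Cybb, the membrane subunit of the NADPH oxidase of phagocytes, measured -1.28 ± 0.23. Plau, the urokinase that activates plasmin, had 10.7 and 10.6 CPM in Y440X, against 44.4 and 27.2 CPM in WT (-1.75 ± 0.24). At higher levels the lipoprotein lipase Lpl and the lysosomal protease Lgmn measured -1.13 ± 0.17 and -1.09 ± 0.15.

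The higher enzymes had smaller changes. Mpnd, a putative metalloprotease, had 74.4 and 78.1 CPM in Y440X, against 32.3 and 37.3 CPM in WT (1.13 ± 0.15). The aspartic protease Napsa had 1.41 and 1.52 CPM in Y440X, against 0.508 and 0.495 CPM in WT (1.54 ± 0.30). The asparaginase Aspg measured 1.27 ± 0.28, and Jmjd7 measured 1.09 ± 0.29.

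Transporters and channels were listed 21 times, 17 lower and 4 higher. Connexins, whose channels join neighbouring cells, split by type. Gja5 of arteries had 0.802 and 1.48 CPM in Y440X, against 4.87 and 5.53 CPM in WT (-2.19 ± 0.32), and Gja3 measured -1.38 ± 0.32. The skin connexins Gjb2 and Gjb6 had 5.63 and 9.55 CPM and 2.91 and 4.99 CPM in Y440X, against 1.67 and 1.82 CPM and 0.656 and 1.17 CPM in WT (2.12 ± 0.30 and 2.12 ± 0.38). Gja3, Gjb2 and Gjb6 lie side by side on chromosome 14 (GRCm38, 57034460 to 57133611), the first lower and the others higher. Slc23a3 had 0.0978 and 0.146 CPM in Y440X, against 1.27 and 0.742 CPM in WT (-3.03 ± 0.50), and the calcium channel Mcoln2 measured -2.13 ± 0.33. The phospholipid flippase Atp8b1 measured -1.86 ± 0.35. Slc11a1, the metal pump of phagosomes, measured -1.64 ± 0.29, and the peptide carrier Slc15a3 measured -1.62 ± 0.35 and -1.05 without the WT forelimb library. The rise of the glutamate carrier Slc1a6 (1.11 ± 0.32) rested on the Y440X forelimb library, and without it was 0.53 and not called. That of the water channel Aqp4 (2.27 ± 0.60) was 1.26 without the same library.

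Matrix and adhesion genes were the most evenly divided class, 8 lower and 6 higher. Spp1, the osteopontin of macrophages and bone, had 1.78 and 1.25 CPM in Y440X, against 8.95 and 5.60 CPM in WT (-2.26 ± 0.31), and Esm1, a proteoglycan of vessel tips, measured -1.80 ± 0.30. The joint lubricant Prg4, the vessel matrix gene Mmrn1 and the tight junction claudin Cldn1 measured -1.75 ± 0.32, -1.52 ± 0.21 and -1.33 ± 0.34. Cthrc1, a secreted collagen-repeat protein, had 34.7 and 23.5 CPM in Y440X, against 76.4 and 58.8 CPM in WT (-1.22 ± 0.22). All 6 higher members serve the junction of epithelium with its basement membrane: Col17a1 of hemidesmosomes had 11.2 and 16.8 CPM in Y440X, against 3.49 and 4.86 CPM in WT (1.75 ± 0.27), and the anchoring collagen Col7a1 had 154 and 124 CPM in Y440X, against 68.1 and 70.9 CPM in WT (1.00 ± 0.16). Lad1, Bcam, Lama5 and Itga3 measured 1.67 ± 0.38, 1.32 ± 0.20, 1.08 ± 0.16 and 1.05 ± 0.27.

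Markers of several cell types moved in the same directions, and their part in these results was not tested. Fewer cells of a type and less RNA per cell cannot be told apart in bulk libraries. Of 22 macrophage markers 17 were listed, each of them lower (median -1.77) and none with 0 reads, and their summed level was 149.1 to 183.6 CPM in Y440X, against 582.7 to 677.4 CPM in WT. Of 21 endothelium markers 10 were listed, all lower (median -1.28), with sums of 115.0 to 115.8 CPM in Y440X, against 265.4 to 281.4 CPM in WT over the 11 in hand. Of 30 muscle markers 8 were listed, all lower, summing to 48.2 to 58.2 CPM in Y440X and 124.4 to 127.1 CPM in WT, with 1 above 0 when scaled over the listed genes alone.

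Markers of epithelium moved the other way, 8 higher and 1 lower (Grhl1, -1.12 ± 0.23) of 32, and the 12 in hand summed to 111.4 to 131.1 CPM in Y440X, against 53.2 to 53.8 CPM in WT. Of 11 neutrophil markers 8 were listed, all higher (median 3.59), with sums of 16.3 to 22.3 CPM in Y440X, against 1.926 to 2.001 CPM in WT. Of 22 cartilage markers 8 were listed and of 12 Schwann and neural crest markers 3, all lower (medians -1.71 and -2.07), and of 11 red cell markers 2, both higher (median 1.79). In the retinoic acid list none of 15 genes was listed. The heat shock list of 10 genes held 3 listed ones, all higher, and Hspb1, Hspa1a and Hspa1b summed to 433.9 and 536.3 CPM in Y440X, against 101.5 and 110.6 CPM in WT. Hspa1a and Hspa1b are near copies of each other. Hspb3, a small heat shock protein gene outside that list, was lower (-1.31 ± 0.34). Ddx3y and Uty, on chromosome Y, had lower levels (-1.89 ± 0.15 and -1.32 ± 0.21), summing to 26.5 and 25.9 CPM in Y440X, against 89.2 and 89.8 CPM in WT. The part of sex in the other results was not tested.

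Of the classed genes, 11 were lower than any macrophage marker, the lowest of which was Cd36 at -2.98. With a mean of at least 1 CPM in WT these were Eno1b, Cxcl3, Il1rn, Cyp1a1, Cxcl2, C5ar1, Msr1 and Slc23a3. The lowest endothelium marker, Lyve1, measured -3.33, and the lowest cartilage marker measured -3.17. C5ar1, Msr1 and Slc23a3 thus did not lie below every cell type marker. In WT libraries 223 of the 273 classed genes were at higher mean CPM in GFP-negative than in GFP-positive cells, 94 of them at least 10-fold. Over all 510 listed genes these counts were 406 and 164, about the same shares. Among the 31 transcription factors these counts were 22 and 4, and among the 72 receptors 64 and 40. The difference between classes was not tested.

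The 303 genes listed for GFP-positive cells were chosen on the GFP-positive libraries, and their change in GFP-negative cells was measured in libraries that did not choose them. The sorts may come from the same bud pools, so effects of a pool can be shared between them. Ddx3y and Uty, for example, were also lower in Y440X in GFP-positive cells (-1.32 ± 0.23 and -1.01 ± 0.25). In GFP-negative cells 127 of the 303 were lower (41.9%) and 28 higher (9.24%) in Y440X by edgeR's quasi-likelihood test with Benjamini-Hochberg adjustment over the 739 genes. Over all 739 genes 67.3% were called lower and 12.7% higher, 80.0% together, so this adjustment is lenient and the share of the 303 lies below that background. Of the 227 listed as lower in GFP-positive cells, 108 were lower (47.6%) and 2 higher (0.881%), and of the 76 listed as higher there, 19 were lower and 26 higher (34.2%). Scaled over the listed genes alone, 19 of the 303 were lower and 145 higher. Over all 739 genes the same scaling called 211 higher and 121 lower, in place of 94 and 497, and moved the median log2 fold change by 1.075.

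The 303 include the 74 genes that were also listed for GFP-negative cells. The other 229 were left over because they missed the authors' threshold there, so their counts are lowered by that choice and are a description. Of the 229, 72 were lower (31.4%) and 9 higher (3.93%) in GFP-negative cells, and 15 were higher with limb as a block. At the p-value of the authors' last listed gene, 36 were lower and 4 higher. Without the WT forelimb library 40 were lower and 10 higher, and scaled over the listed genes alone 1 was lower and 126 higher.

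Among the 229, the largest decreases with at least 1 CPM were in the connexin Gjc3 of myelinating cells, the cartilage matrix gene Comp, the linker histone Hist1h1c, the ubiquitin ligase Trim47 and the fatty acid binder Fabp7. Trim47 had 3.66 and 2.79 CPM in Y440X, against 10.5 and 5.76 CPM in WT (-1.33 ± 0.32; edgeR adjusted p = 0.0048). Gjc3 had 0.489 and 0.166 CPM in Y440X, against 1.25 and 0.944 CPM in WT (-1.72 ± 0.46; edgeR adjusted p = 0.0069). Hist1h1c measured -1.39 ± 0.27 (edgeR adjusted p = 0.00191) and Comp -1.53 ± 0.39 (edgeR adjusted p = 0.00628). Without the WT forelimb library Comp and Trim47 measured -0.97 and -0.84, and without the Y440X forelimb library Gjc3 measured -2.70. All kept their calls. Fabp7 measured -1.29 ± 0.34.

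Among the genes that were higher there, Kremen2, a co-receptor for the Wnt inhibitor Dkk1, had 9.37 and 8.57 CPM in Y440X, against 4.85 and 4.56 CPM in WT (0.93 ± 0.21; edgeR adjusted p = 0.00376). The sulfotransferase Sult4a1 had 9.68 and 7.91 CPM in Y440X, against 4.02 and 4.83 CPM in WT (0.99 ± 0.23; edgeR adjusted p = 0.00419), and the epithelial splicing factor Esrp1 measured 1.29 ± 0.35. The transcription factor Tbx1 (0.93 ± 0.29) was not called without the Y440X forelimb library (0.49). Fermt1, a kindlin of keratinocytes, was not called without the WT forelimb library (0.93), and ranged to 2.43 without the WT hindlimb and 0.95 without the Y440X hindlimb library.

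In the other direction, the 510 genes listed for GFP-negative cells were measured in the GFP-positive libraries. There 117 were lower (22.9%) and 67 higher (13.1%) in Y440X (edgeR, adjusted over the 739, of which 40.1% were called lower and 15.8% higher, 55.9% together). Of the 425 listed as lower in GFP-negative cells, 114 were lower (26.8%) and 33 higher (7.76%), and of the 85 listed as higher, 3 were lower (3.53%) and 34 higher. Both counts depended on single WT libraries: 48 were lower and 18 higher without the WT GFP-positive forelimb library, and 74 and 34 without the WT hindlimb library. At the p-value of the authors' last gene for that sort, 82 were lower and 38 higher. Without the 74 genes listed for both sorts, which removes the clearest changes by choice, 69 of 436 were lower (15.8%) and 41 higher (9.4%). Those counts were 10 and 4 without the WT GFP-positive forelimb library, 31 and 14 without the WT hindlimb library, and 36 lower without the Y440X hindlimb library.

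Of the 74 genes listed for both sorts, 48 had lower levels in each sort and 19 higher levels in each, while 7 were lower in GFP-negative but higher in GFP-positive cells. None was higher in GFP-negative and lower in GFP-positive cells. The 7 were the vessel receptor Adgrl4, the bone phosphatase Alpl, the vessel repressor Bcl6b, the Fc receptor-like gene Fcrls, the lymphoid GTPase Gimap6, the Notch-modifying enzyme Mfng and the Ras activator Rasgrp3. Rasgrp3 had 5.55 and 6.12 CPM in Y440X, against 18.4 and 17.5 CPM in WT GFP-negative cells (-1.62 ± 0.19). In GFP-positive cells it had 1.98 and 1.90 CPM in Y440X, against 1.04 and 0.799 CPM in WT (1.08 ± 0.31). Alpl had 5.22 and 4.51 CPM in Y440X, against 13.9 and 9.42 CPM in WT GFP-negative cells, and 23.8 and 23.5 CPM in Y440X, against 7.15 and 11.96 CPM in WT GFP-positive cells (-1.26 ± 0.25 and 1.30 ± 0.26). Mfng and Bcl6b, at -1.02 ± 0.25 and -1.01 ± 0.23 in GFP-negative cells, lay at 0.05 and 0.07 when scaled over the listed genes alone.

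The difference of the change between the sorts was tested as an interaction over all 8 libraries, in which edgeR called 235 of the 739 genes as more negative in GFP-negative cells (31.8%) and 134 as more positive (18.1%), 49.9% together. Since each gene was listed for its change in 1 of the sorts, a difference is partly built in. Over all genes of the tables, 667 had more than 3 reads over each group in both sorts. Of these 667, 46 were called in opposite directions in the sorts together with a called difference. Among the 446 of them listed for GFP-negative cells the count was 34, about the same share. Of these 34, 31 were lower in GFP-negative and higher in GFP-positive cells, 22 belonged to the classes, and 27 were not listed for GFP-positive cells. Tnfsf11 was lower by 2.37 in GFP-negative cells and had 2.83 and 1.54 CPM in Y440X, against 0.596 and 0.775 CPM in WT GFP-positive cells (1.66 ± 0.35; interaction, edgeR adjusted p = 0.000677). Cxcl2 measured 0.94 ± 0.35 in GFP-positive cells (interaction, edgeR adjusted p = 0.00052), Hpgds 1.23 ± 0.51 (0.000677), Tnf 1.18 ± 0.47 (0.00163) and Esm1 1.27 ± 0.36 (0.0013). Reads there were few for Hpgds, 15 and 27 in Y440X against 7 and 9 in WT. For Tnf they were 36 and 20 against 14 and 8. The endothelium marker Pecam1 showed the same pair of directions, 5.64 and 4.28 CPM in Y440X, against 3.58 and 2.56 CPM in WT GFP-positive cells (0.69 ± 0.28).

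**Figure D3:**
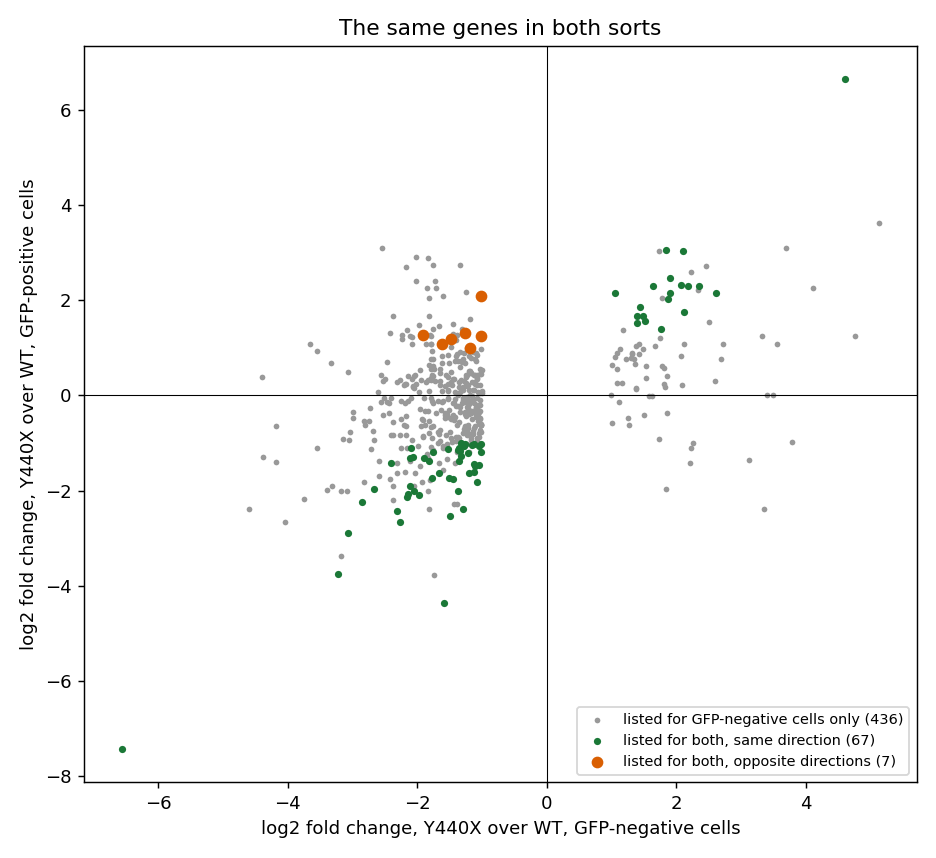
Log2 fold change of Y440X over WT in GFP-negative (x axis) against GFP-positive cells (y axis) for the 510 genes listed for GFP-negative cells. Grey points are listed for GFP-negative cells only (436), green points for both sorts in the same direction (67) and orange points for both in opposite directions (7); the orange points all lie at the upper left. Points without reads in a group have fitted values that depend on the prior count.

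Other classed genes moved alike in both sorts. Foxc2 measured -1.19 ± 0.26 in GFP-positive cells, Mcoln2 -2.06 ± 0.28 and Cthrc1 -1.22 ± 0.26, beside -1.76, -2.13 and -1.22 in GFP-negative cells. Gnat1, a transducin subunit known from the retina, measured -1.77 ± 0.26 in GFP-negative and -1.73 ± 0.37 in GFP-positive cells. Eno1b was lower in both sorts, and Wnt3, Wnt6, Wnt7a and Wnt7b were higher in both. Outside the classes, Krt14, Hspa1a and Hspa1b measured 2.47 ± 0.29, 2.31 ± 0.24 and 2.29 ± 0.24 in GFP-positive cells. Ripk4, Rnf43 and Gjb2 were higher in both sorts, at 2.04 ± 0.35, 1.53 ± 0.40 and 1.76 ± 0.31 in GFP-positive cells. Rspo1 was not, at -0.01 ± 0.41, with under 0.6 CPM in each GFP-positive library (interaction, edgeR adjusted p = 0.0228).

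The limbs agreed in direction for all 510 listed genes, which follows in part from how the genes were chosen. The median log2 ratio was -1.40 in forelimb and -1.36 in hindlimb, with a median gap of 0.30 between limbs for a gene and a gap over 1 in 47 genes. Of the 229 genes that were listed for the other sort only, 189 had the same sign in both limbs. Aqp4 was among those with a wide gap, with a log2 ratio of 2.91 in forelimb and 1.11 in hindlimb. Pkib, an inhibitor of protein kinase A, measured -0.78 in forelimb and -2.31 in hindlimb, Slc23a3 -3.57 and -2.27, and Cxcl3 -4.64 and -3.48. With 1 pool per limb and genotype, a difference between limbs could not be tested.

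**Figure D4:**
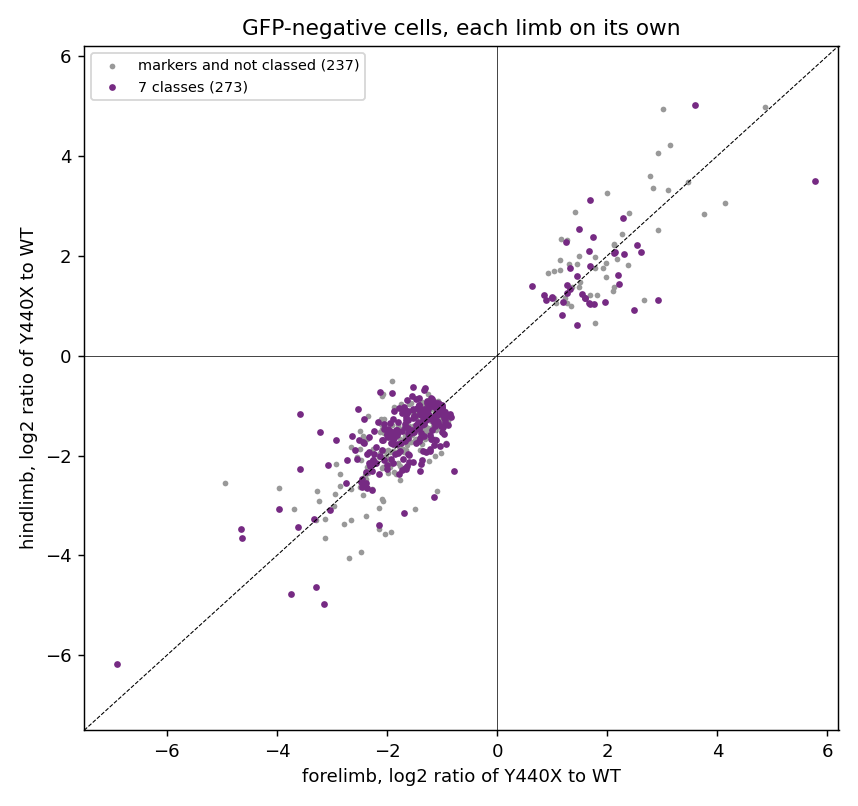
Log2 ratio of Y440X to WT CPM in forelimb (x axis) and hindlimb (y axis) GFP-negative libraries for the 510 listed genes, with 273 classed genes in purple and 237 others in grey and equal ratios on the dashed line. All points lie in the lower left or upper right quadrant.

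Position in the genome was shared by some members. On RefSeq's GRCm38.p6 annotation, which matched 507 of the 510 genes, 66 lay in 32 runs of adjacent protein-coding genes, and 30 of the runs went in 1 direction. Since 83.3% of the listed genes were lower, most runs would go in 1 direction by that share alone. The number of runs was not compared with that of other gene sets. The runs included the C1q genes, Tlr8 and Tlr7, and Ccl3 and Ccl4. The run of 3 connexins held both directions. Chromosome X held 28 of 423 matched lower genes (6.62%) and 1 of 84 higher genes (1.19%), beside 4.41% of all protein-coding genes. How sex of the pooled fetuses bears on this was not tested.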

How the data were processed

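Only genes in the deposited tables were used. Per the submitters' processing notes, featureCounts and edgeR 3.36.0 were used with GRCm38 and mm10; no aligner name was found in the sources used here. The authors' tables hold a log2 fold change and log2 CPM, an F score, a p-value and its FDR, and a gene length in bases (another unit), per the file headers. The per-library columns are headed RPKM, but the deposited values are whole-number counts. All listed genes had an FDR under 0.05 and a log2 fold change of at least 1 in size. Library sizes were solved from the deposited values of 165 genes with at least 200 counts, and CPM are counts per 1000000 of these. No sample column (0) was left unused. The number of genes tested, 16223 to 16265, follows from the authors' FDR and p-values.

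edgeR 4.0.16 (quasi-likelihood, R 4.3.3) was fitted to the 4 GFP-negative libraries, to the GFP-positive ones and to all 8 for the interaction, with p-values adjusted over all 739 genes. Its log2 fold changes differed from the deposited ones by a median of 0.000439 and at most 0.0148. The steps were tested on simulated data with known changes. Alternatives were TMM or DESeq2 size factors over the listed genes, DESeq2 1.42.0, a filter at 1 CPM, limb as a block, 1 shared fit and leaving out each library. SEs include the spread between libraries.

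Named genes were up to 6 lower and 4 higher per class with at least 1 CPM and no overlap between genotypes, ranked by size of change, plus Sox9, Pecam1, Mrc1, Krt14, listed members of the pathway lists, and up to 5 each way of the GFP-positive genes that passed. Other genes are examples of families chosen after their values were seen. Members, classes and lists were chosen with earlier results of these data known. Some results are not reported here.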

Additional observations from a re-analysis of the deposited data

Results flagged for a closer look

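Genes flagged here changed differently in the sorts by the interaction test over all 8 libraries (edgeR, adjusted p under 0.05). Each value is the log2 fold change in GFP-negative minus that in GFP-positive cells. Of 121 genes considered, 52 had a called difference. The 4 with 3 reads or fewer over a group are left out, and of the other 48, 41 were more negative in GFP-negative cells and 7 more positive. The genes were listed for their change in 1 of the sorts, so part of each difference is built in.

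The genes listed in opposite directions were Adgrl4 (-2.66), Alpl (-2.57), Bcl6b (-2.25), Fcrls (-3.17), Gimap6 (-2.18), Mfng (-3.11) and Rasgrp3 (-2.70). Ligands were Cxcl2 (-4.49), Tnfsf11 (-4.04), Il1rn (-3.53), Tnf (-3.40), Ccl4 (-3.16), Ccl3 (-2.59), Dll4 (-1.93) and Gdf5 (-1.30). Receptors were Msr1 (-3.56), Ccr1 (-3.36), Tlr7 (-2.40), Fzd4 (-1.43) and Il1rap (-0.866). Signalling genes and enzymes were Hpgds (-3.30), Casp4 (-2.54), Plek (-2.26), Dusp2 (-1.44) and Cav2 (-1.34). Transcription factors were Foxc1 (-1.92), Epas1 (-1.46) and Sox9 (-1.14). Transporters, matrix and adhesion genes were Esm1 (-3.07), Spp1 (-2.58), Slc15a3 (-2.31), Slc23a3 (-2.26), Prg4 (-2.17), Atp8b1 (-2.15), Cldn1 (-2.05), Gja5 (-2.03) and Mmrn1 (-1.63). The markers Mrc1 (-2.44), Pecam1 (-2.005) and Csf1r (-1.95) and the heat shock gene Hspb1 (-1.10) also differed. More positive in GFP-negative cells were Aqp4 (3.27), Aspg (1.89), Rspo1 (1.59), Arhgef37 (1.26), Slc1a6 (1.25), Lama5 (0.829) and Nog (0.754).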

How the results depend on the processing

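Scaling over the listed genes alone assumes that they are unchanged on balance although they were selected as changed. In GFP-negative cells it called 211 higher and 121 lower of the 739 with TMM and 211 and 124 with DESeq2's size factors, in place of 94 and 497. For all 303 genes listed for GFP-positive cells it gave 145 higher and 19 lower with either, and for the 510 in GFP-positive cells 173 and 42 with TMM and 165 and 48 with DESeq2's factors. For genes listed for GFP-positive cells only, it gave 126 higher and 1 lower with either. For genes listed for GFP-negative cells only, in GFP-positive cells, TMM gave 147 higher and 11 lower and DESeq2's factors 139 and 12. For the interaction TMM gave 204 and 140. Bmpr2, Mfng and Fgfr3 lay above 0 with TMM (0.0617, 0.0461 and 0.0490) and with DESeq2's factors (0.0593, 0.0441 and 0.0465), and 41 of 115 named genes lost the call under either. The cause was not tested.

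The p-value of the authors' last listed gene gave 36 lower and 4 higher GFP-positive genes in GFP-negative cells, and 34 and 14 for GFP-negative genes in GFP-positive cells (38 higher over all 510), a threshold chosen after seeing the data. In GFP-positive cells DESeq2 gave 43 lower and 17 higher of the 436 and 41 higher of the 510, and the 1 CPM filter, which tests fewer genes, 27 higher. Leaving out 1 library at a time gave 459 to 490 lower and 93 to 97 higher in GFP-negative cells, 40 to 66 lower and 9 to 13 higher of the GFP-positive genes there, 10 to 52 lower and 4 to 35 higher of the 436 in GFP-positive cells (48 to 100 and 18 to 59 of the 510), and 185 to 241 and 89 to 130 for the interaction. Where 1 library remained in a group, it was assumed to vary like the other group.

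Limb as a replicate block changed no call of the 115 named genes and called 100 higher and 509 lower of the 739 and 15 higher of the GFP-positive genes. Forelimb and hindlimb are different tissues, and deviations of same-limb libraries correlated at 0.467 over 423 genes; with 2 pairs, whether they pair was not settled. The number of genes below 0 in each class stayed within 1.5 times under all alternatives run, while TMM moved the number above 0 to 12 signalling genes, 8 receptors and 10 transcription factors, in place of 5, 4 and 5. Changes of genes under 1 CPM rest on few reads.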
